A study of Mus musculus with 10 samples.

Results

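The 10 phase II detoxification and NRF2 genes described here were examined in an AHR ChIP-seq data set of mouse colon organoids. They were picked by name: Nqo1, Aldh3a1, Ugt1a6a, Gsta1 and Gsta2 as enzymes that conjugate, reduce or oxidise foreign or reactive molecules, Nfe2l2 and Keap1 as the NRF2 pair, and Hmox1, Gclc and Gclm as genes that NRF2 is known for. Every peak of the wild type (WT) and AHR KO lists that overlapped one of these 10 gene bodies or 10 kb on either side (GENCODE M21 on mm10) was taken. This gave 22 of the 123652 WT peaks and 1 of the 1931 AHR KO peaks. The 10 genes are part of 21938 protein-coding genes, and 8 of the 10 had a WT peak.

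Organoids are epithelial cultures grown from crypt stem cells, here in WENR medium, which carries Wnt3a and keeps them in a stem-like state. WT and AHR KO organoids alike received 5 nM FICZ, a tryptophan-derived AHR ligand, for 1 hour, so the lists hold no untreated group. WT organoids gave 4 AHR immunoprecipitations (IP) with 4 inputs, which stand behind a single list, and the AHR KO gave 1 IP with 1 input, although the study's methods describe replicates of both genotypes. The labels name the knockout only as AHR KO, and the methods describe crypts of mice in which a Cre under the villin promoter deletes a floxed Ahr in gut epithelium. Their base medium held N-acetylcysteine, a thiol antioxidant, for both genotypes. With no value per culture in the WT list and 1 AHR KO library, no difference between the genotypes could be tested, and each count below describes these lists.

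The DNA-binding form of AHR is a pair with ARNT, which recognises the xenobiotic response element with the core GCGTG. Genes of its classical battery code for cytochromes P450 of phase I and for phase II enzymes, which reduce quinones, oxidise aldehydes or attach glucuronic acid or glutathione to foreign molecules. NRF2, the product of Nfe2l2, is held back by KEAP1 and degraded until oxidants or electrophiles modify KEAP1. It then binds the antioxidant response element with a small MAF protein and drives many of the same enzymes, and AHR has been described to act upstream of Nfe2l2.

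The peaks that the comparison turns on are shown by sequence, because their repeats and short words can be read directly. All are from GRCm38 (mm10). The first give the 200 bp around the midpoint of the promoter peak of Gclc and of the highest-scoring peak of Nqo1. Capitals mark GCGTG on either strand in the former, and separate copies of CACACA or TGTGTG in the latter.
Gclc promoter peak, chr9:77753953-77754152, plus strand: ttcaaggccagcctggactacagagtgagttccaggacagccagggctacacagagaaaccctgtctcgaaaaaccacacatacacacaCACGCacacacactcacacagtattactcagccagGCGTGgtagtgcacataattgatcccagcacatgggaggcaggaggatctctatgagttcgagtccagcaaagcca
Nqo1 highest peak, chr8:107398435-107398634, plus strand: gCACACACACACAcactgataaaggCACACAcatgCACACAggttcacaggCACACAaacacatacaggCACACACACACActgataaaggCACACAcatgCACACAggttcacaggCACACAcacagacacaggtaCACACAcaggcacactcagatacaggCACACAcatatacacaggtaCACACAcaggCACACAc

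The next windows show the Gsta1 peak, with GCGTG in capitals, and the Ugt1a6a peak that was also called in the AHR KO, with CACACA or TGTGTG in capitals. The whole intronic peak of Nfe2l2 follows with its antioxidant response element word in capitals.
Gsta1 peak, chr9:78224012-78224211, plus strand: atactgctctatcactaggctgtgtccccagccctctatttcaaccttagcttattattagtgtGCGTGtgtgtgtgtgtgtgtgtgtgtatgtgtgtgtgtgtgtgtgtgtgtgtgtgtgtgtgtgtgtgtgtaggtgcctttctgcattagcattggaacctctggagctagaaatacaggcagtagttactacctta
Ugt1a6a peak shared with the AHR KO, chr1:88224270-88224469, plus strand: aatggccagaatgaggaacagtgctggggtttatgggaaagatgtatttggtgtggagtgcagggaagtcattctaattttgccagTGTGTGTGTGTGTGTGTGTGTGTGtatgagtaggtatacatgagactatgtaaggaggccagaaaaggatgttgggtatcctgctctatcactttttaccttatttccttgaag
Nfe2l2 intronic peak, chr2:75681550-75681788, plus strand: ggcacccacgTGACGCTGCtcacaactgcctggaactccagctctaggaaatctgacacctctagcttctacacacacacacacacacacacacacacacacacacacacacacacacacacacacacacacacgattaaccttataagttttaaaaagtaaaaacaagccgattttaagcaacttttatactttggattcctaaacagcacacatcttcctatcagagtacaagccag

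For contrast, the highest peak of Cyp1a1, the classical AHR target, is given with the core GCGTG and the longer AHR:ARNT word TNGCGTG (N is any base) in capitals. The RefSeq promoter of Gsta2 (250 bases before to 50 after the start, GRCm38.p6) and a short stretch before the Nqo1 start carry TNGCGTG in capitals, and both lie outside the peaks.
Cyp1a1 highest peak, chr9:57696569-57696768, plus strand: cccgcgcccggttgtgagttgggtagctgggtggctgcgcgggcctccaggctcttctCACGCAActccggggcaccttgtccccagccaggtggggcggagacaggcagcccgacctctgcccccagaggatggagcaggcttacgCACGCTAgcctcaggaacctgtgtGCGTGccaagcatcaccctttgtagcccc
Gsta2 promoter (RefSeq), chr9:78347096-78347395, minus strand: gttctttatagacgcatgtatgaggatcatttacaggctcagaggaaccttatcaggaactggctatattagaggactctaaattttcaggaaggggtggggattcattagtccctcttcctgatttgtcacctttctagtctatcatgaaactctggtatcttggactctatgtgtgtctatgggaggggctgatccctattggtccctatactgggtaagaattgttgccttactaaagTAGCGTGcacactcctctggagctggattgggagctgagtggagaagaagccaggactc
Nqo1 site before the start, chr8:107403576-107403602, minus strand: acccttccccTAGCGTGcaaaggtgac

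Of the 10 genes, 8 had a WT peak in the gene or within 10 kb. Among all protein-coding genes 78.3% had one under the same rule, so the count stands near the background. Aldh3a1 and Gclm had none. A peak in the top 10% of scores (7.14 or more) was found at 3 genes, Nqo1, Gsta1 and Gsta2, against a background of 23.0%. The score is the authors' fold enrichment of IP over the expected background, a ratio on a linear scale. The 22 member scores ran from 3.099 to 9.86 with a median of 5.74, and the whole list had a median of 5.32 with quartiles at 4.54 and 5.98. In score, 12 of the member peaks lay above the list median, 1 at it and 9 below. The genes and their flanks held 4.81 peaks per 100 kb in sum. The median per gene was 3.89, beside 4.003 for all protein-coding genes.

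**Figure D1:**
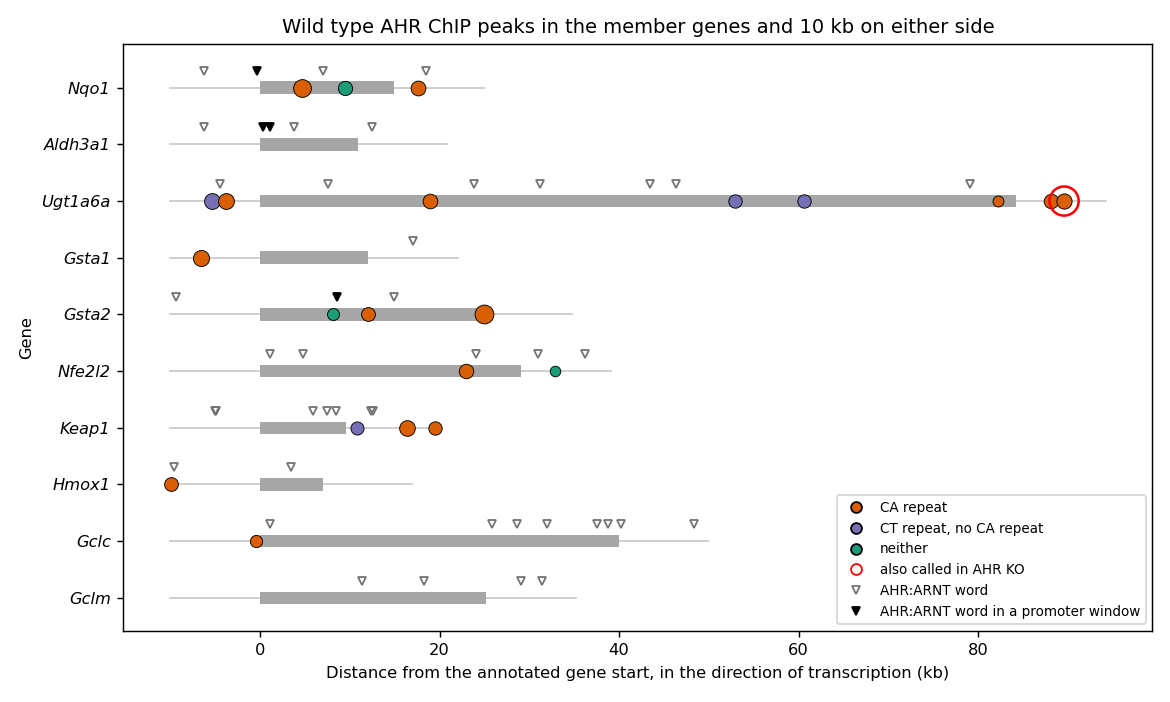
Each row is one gene drawn from its annotated start at 0, in kb along the direction of transcription, with the gene body as a grey bar and 10 kb on either side as a line. Circles are WT peaks, with area proportional to score and colour by repeat, the red ring marks the 1 peak also called in the AHR KO, and triangles mark AHR:ARNT words (filled in a promoter window). None of the 46 words coincides with any of the 22 peaks, and the rows of Aldh3a1 and Gclm hold no peak.

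Nqo1 (ENSMUSG00000003849.8, chr8:107388225-107403206, minus strand) codes for NAD(P)H quinone dehydrogenase, which reduces quinones by transferring electrons in pairs. It had 3 WT peaks, and none lay at its promoter. Distances from a gene's start or end run to the peak midpoint unless an edge is named, and those from a word run to the nearest peak edge. The highest, in an intron 4671 bp from the start (chr8:107398241-107398829), scored 8.79 and ranked 3332 in the list. At 589 bp it was also the widest of the 22 peaks. Its window was 100% soft-masked, meaning lower-case repeat sequence in the genome file, and held 14 separate copies of CACACA or TGTGTG. A second intronic peak 9506 bp from the start (chr8:107393571-107393828) scored 5.65, was 98% masked and held no CA or CT repeat. The third, 2618 bp past the gene's end (chr8:107385483-107385731), scored 6.08, was 50% masked and held 9 copies. The AHR:ARNT word TAGCGTG stood 383 bp before the start, 4756 bp from the nearest peak edge.

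Aldh3a1 (ENSMUSG00000019102.10, chr11:61207537-61218421, plus strand) codes for an aldehyde dehydrogenase that is a textbook member of the AHR battery. It had no peak under the rule. The nearest edge of a peak lay 10028 bp before the gene (chr11:61197329-61197508), just beyond the limit, with a score of 4.96 and 9 copies of the CA unit. The gene carried 2 AHR:ARNT words in its promoter windows (1 kb before to 100 bp after a transcript start). TGGCGTG stood 341 bp after the gene start and TCGCGTG 39 bp after another transcript start. They lay 10366 and 11148 bp from the nearest peak edge.

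Ugt1a6a (ENSMUSG00000054545.17, chr1:88134809-88218997, plus strand) codes for a UDP-glucuronosyltransferase that conjugates phenols. It had 8 of the 22 peaks, in the longest of the 10 regions (104.2 kb). The Ugt1a genes share their last exons and their regions overlap, so a peak here cannot be assigned to 1 of them. Upstream, peaks 5384 bp (chr1:88129207-88129643) and 3805 bp (chr1:88130887-88131121) before the start both scored 6.98. The farther one held 17 copies of CTCTCT or GAGAGA and the nearer 10 copies of the CA unit. Inside the gene, peaks 18904 bp (chr1:88153603-88153822), 52934 bp (chr1:88187653-88187832) and 60629 bp (chr1:88195337-88195538) from the start scored 5.98, 4.98 and 4.98. Each of these 3 intronic windows held at least 7 copies of the CT unit and was at least 83% masked. A further peak inside the gene, 82165 bp from the start (chr1:88216879-88217068), scored 3.33 and lay in an exon of a retained-intron transcript. Its window was the least masked of the set, at 32%, and held 2 GCGTG cores and 4 CA copies. Past the end, peaks at 3925 bp (chr1:88222777-88223066) and 5373 bp (chr1:88224224-88224516) scored 5.86 and 6.43. They held 8 and 4 CA copies, with 67% and 37.5% of the window masked. The last overlapped an AHR KO peak, and its nearest protein-coding start was that of Mroh2a, 2616 bp away.

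Gsta1 and Gsta2 code for alpha-class glutathione S-transferases and lie in the same stretch of chromosome 9. Gsta1 (ENSMUSG00000074183.3, chr9:78230656-78242684, plus strand) had 1 peak, 6544 bp before its start (chr9:78224006-78224218), with a score of 7.23. The window held 10 CA copies and 1 GCGTG core, and as the sequence above shows the core stood at the head of a TG repeat. Gsta2 (ENSMUSG00000057933.10, chr9:78331018-78355788, minus strand) had the highest score of the set, 9.86 (rank 1547), at a peak 183 bp past its end (chr9:78330693-78330977). This peak held 15 CA copies, was 75.5% masked and lay 2653 bp from the start of Omt2b, its nearest protein-coding start. A peak in an intron 3406 bp from the nearest Gsta2 transcript start (chr9:78343579-78343924) scored 5.32 with 8 CA copies and 1 core. The third Gsta2 peak lay at a promoter, 510 bp before a transcript start (chr9:78347559-78347796). It scored 3.99, low in the list, and its window was 100% masked, with neither a CA nor a CT repeat. The AHR:ARNT word TAGCGTG stood 7 bp after its own nearest Gsta2 transcript start, 404 bp from the edge of the peak, which ended 163 bp short of the RefSeq promoter.

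Nfe2l2 (ENSMUSG00000015839.6, chr2:75675513-75704641, minus strand), the gene of NRF2, had 2 peaks. The one in an intron 22972 bp from the start (chr2:75681550-75681788) scored 5.84 and held 11 CA copies. It carried TGACGCTGC, the only antioxidant response element word found within a member peak, 10 bp from its edge and outside the central 200 bp. The other, 3726 bp past the end (chr2:75671681-75671892), had the lowest score of the set, 3.099, in a window that was 100% masked and held 1 core. Keap1 (ENSMUSG00000003308.15, chr9:21229730-21239361, minus strand), whose product presents NRF2 for degradation, had 3 peaks, all past its end. They lay 1150 bp (chr9:21228488-21228672), 6790 bp (chr9:21222800-21223079) and 9886 bp (chr9:21219708-21219980) beyond it and scored 4.76, 6.82 and 4.96. The nearest held 14 CT copies, the middle one 5 CA and 6 CT copies with 1 core, and the farthest 7 CA copies. No peak lay at the promoter of either regulator.

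Among the NRF2 targets, Hmox1 (ENSMUSG00000005413.8, chr8:75093621-75100589, plus strand), which codes for the inducible heme oxygenase, had 1 peak 9919 bp before its start (chr8:75083605-75083798). It scored 5.27 with 9 CA copies and 58% of the window masked. An AHR:ARNT word stood 279 bp from its edge, the closest of the 46 in the regions. The antioxidant response element word TGACTCAGC stood nearer to that edge, at 150, 178 and 207 bp. Gclc (ENSMUSG00000032350.9, chr9:77754535-77794485, plus strand), the catalytic subunit of the enzyme that starts glutathione synthesis, had 1 peak at its promoter, 482 bp before the start (chr9:77753894-77754211). It scored 4.17 and was 100% masked. Its 2 GCGTG cores, 1 within a CA stretch, lacked the T that makes TNGCGTG. Gclm (ENSMUSG00000028124.15, chr3:122245557-122270732, plus strand), the modifier subunit, had no peak. The nearest edge of a peak lay 12912 bp past its end (chr3:122283645-122283870) with a score of 4.32 and 100% of the window masked.

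The 10 kb limit decided a few of these entries. Measured to the nearest edge, just inside it were a Hmox1 peak 9822 bp from the gene and a Keap1 peak at 9749 bp, with scores of 5.27 and 4.96. Just outside were peaks at 10028 bp from Aldh3a1 (4.96), 11640 bp from Keap1 (7.77) and 12266 bp from Gsta2 (6.98).

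By place, 7 of the 22 peaks were intronic, 1 exonic, 2 at promoters, 4 upstream and 8 downstream. A promoter peak was present at 2 of the 10 genes, Gsta2 and Gclc, beside 10.7% of protein-coding genes. Both promoter peaks scored below the first quartile of the list. Peaks were 180 to 589 bp wide with a median of 244 bp, beside 227 bp in the list.

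Repeats were the feature most of the peaks shared. At least 50% of the window was masked in 19 of 22, beside 86.0% of all WT windows, and the member median was 82.8% (list, 86.5%). None of the 22 windows was under 25% masked, beside 0.454% of the list. A CA repeat, for which CACACA and TGTGTG together had to occur 3 times without overlap, was found in 15 of 22 (57.3% in the list). A CT repeat, defined the same way with CTCTCT or GAGAGA, was found in 6 of 22 (20.7% in the list). Both were present in 2 windows and neither in 3. These shares lie near those of the list. GC content ran from 31.5 to 56% with a median of 45.3%, beside 46% in the list.

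**Figure D2:**
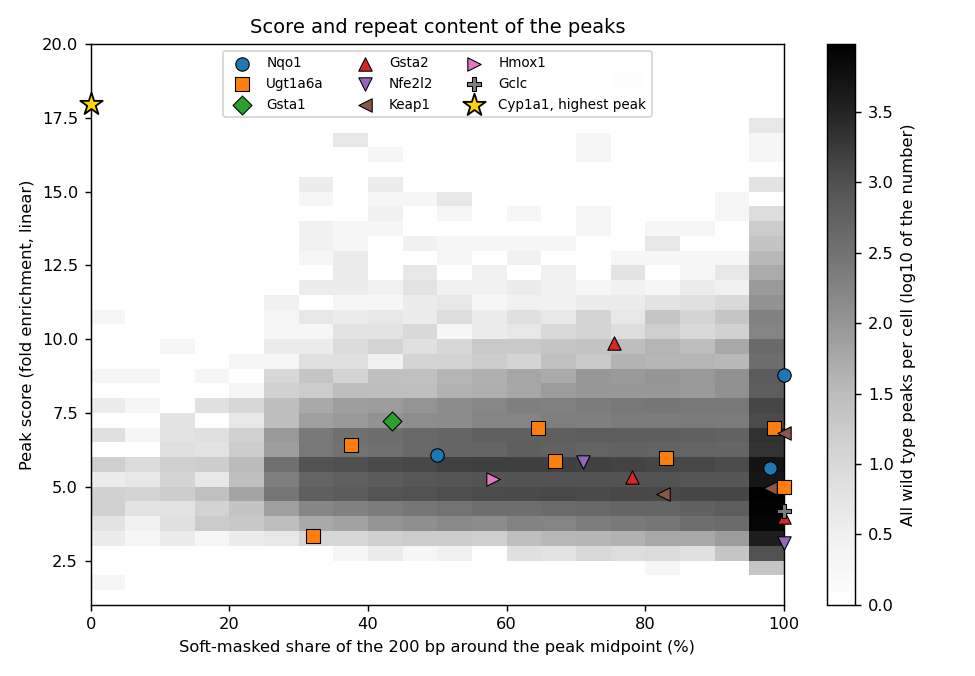
Each coloured point is a WT peak at a member gene, by the soft-masked share of its 200 bp window (x axis, %) and its score (y axis, linear fold enrichment), over a grey count of all WT peaks (log10 scale, scores up to 20). Member peaks span 32% to 100% masked and scores of 3.099 to 9.86, while the star, the highest Cyp1a1 peak, lies at 0% and 17.97.

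Repeats can collect reads from many places, so the uniqueness of each peak was read from the genome. Every stretch as long as a read occurred only once in 19 of the 22 peaks, and over all peaks 97.8% of 3726 such stretches did so. The exceptions were the Gsta2 intronic peak (97.97% unique), the Keap1 peak farthest past the end (73.99%) and the lower Nfe2l2 peak (70.5%). How the authors treated reads with several placements was not given in the sources used here, and its part in these scores was not tested.

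The AHR:ARNT word TNGCGTG was searched on both strands, in all motif counts together with the core GCGTG, the antioxidant response element word TGACNNNGC and the AP-1 word TGACTCA. Every TNGCGTG also holds the core, and TGACTCA followed by GC counts as TGACNNNGC too. None of the 22 member windows held TNGCGTG, beside 2.84% of WT windows. With that background fewer than 1 peak would hold it in 22, and a count of 0 allows a share of up to 13.6%, covering counting error only. The core GCGTG was found in 6 of 22 windows, beside 17.7%. TGACNNNGC was found in 0 of 22 (2.61% in the list) and TGACTCA in 0 of 22 (1.28%). The highest Cyp1a1 peak (chr9:57696413-57696924, score 17.97, 0% masked) held 2 TNGCGTG and 3 core words in the same window, so the list held a peak of that form at a classical target. The other Cyp1a1 peaks scored 7.62 and 5.65, were 60% and 50% masked and held 10 and 8 CA copies. They carried no TNGCGTG, and the core stood 3 times in the former and 0 times in the latter.

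Words were then counted over the whole regions, since a short word also occurs outside peaks. The 10 regions held 46 TNGCGTG words, 41 of them outside masked sequence, and 0 lay in a peak, which allows up to 6.52%. Over the regions of all protein-coding genes 2.08% of these words lay in a WT peak, so a count of 0 in 46 stands near the background. The distance from a member word to the nearest peak edge ran from 279 to 26708 bp with a median of 9187 bp, and 5 words lay within 1 kb of a peak. Of the 46, 4 stood in promoter windows, at Nqo1, Aldh3a1 and Gsta2, and none of those overlapped a peak. For TGACNNNGC, 1 of 162 words lay in a peak (0.617%, beside 0.532% over all gene regions), and 11 words in promoter windows of 7 genes lay outside. Of the 162, 19 lay within 1 kb of a peak, the 1 in a peak included. The core gave 8 of 292 in peaks, against 4.35% over all gene regions, and TGACTCA 0 of 85 against 0.56%.

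**Figure D3:**
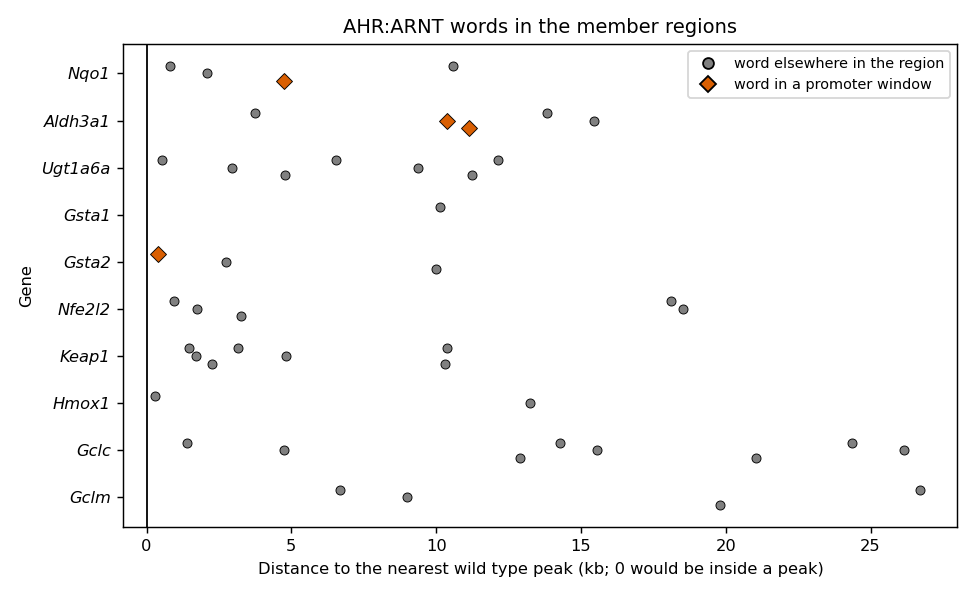
Each point is one of the 46 AHR:ARNT words in the member regions, by its distance in kb to the nearest WT peak edge (x axis) and by gene (rows, points offset vertically for legibility). Diamonds mark the 4 words in promoter windows, of which the Gsta2 word is nearest to a peak at 404 bp, and no point sits at 0.

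RefSeq promoters of 7 members were matched: Nqo1, Ugt1a6a, Gsta1, Gsta2, Nfe2l2, Keap1 and Gclm. Aldh3a1, Hmox1 and Gclc had no entry. Of these 300-base sequences, TNGCGTG was found in Gsta2 alone, and 5.07% of 32851 RefSeq promoters held it. The core was found in Gsta1 (1), Gsta2 (1), Keap1 (2) and Gclm (3), beside 32.4% of promoters. TGACNNNGC was found in Nfe2l2 and Gclm, beside 12.4%, and TGACTCA in none, beside 5.2%. The distance from these sequences to the nearest WT peak edge ran from 163 bp at Gsta2 to 27278 bp at Gclm.

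An AHR KO peak lay at 1 of the 10 genes, Ugt1a6a, beside 4.47% of protein-coding genes. In that list it scored 8.77 and ranked 199. The lists do not share a common background, so this score was not set against that of the overlapping WT peak. It overlapped 1 of the 22 WT member peaks, beside 1.46% of WT peaks. The other 21 had no AHR KO counterpart. Depth per library was not analysed, and its part in this was not tested. Scores of peaks over the genome-wide background are whole multiples of a step, which gave a background of 2.01 fragments in WT and 0.287 in the AHR KO. The step of each list held 63809 of the 123652 WT peaks and 334 of the 1931 AHR KO peaks. AHR KO peaks on their step began at 5 fragments and had a median of 8. This reading uses the genome-wide background, and WT member scores were not converted to it. Of the 22 member peaks, only 8 lay on the corresponding WT step, with pileups of 11 to 20 fragments.

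The wider pathway was described with 83 further genes in 11 roles. A WT peak lay in or within 10 kb of 69 of them (background 78.3%), a top-10% peak at 20 (23.0%), a promoter peak at 16 (10.7%) and an AHR KO peak at 11 (4.47%). Of the last, 8 were Ugt1a genes that shared the 1 AHR KO peak described for Ugt1a6a. The regions of those 8 genes overlap and share WT peaks too, so they are not separate entries in the counts of genes with a WT peak. By role, peaks were found at 8 of 9 NRF2 partners or regulators, 5 of 6 genes of glutathione synthesis and recycling, 13 of 14 genes of UDP-glucuronosyltransferases and their supply (Ugdh included) and 10 of 10 aldehyde, quinone and epoxide enzymes. Glutathione S-transferases had them at 9 of 16 genes, and iron and heme genes at 3 of 5. The counts were 4 of 4 for thioredoxin and peroxiredoxin, 4 of 5 for NADPH supply and 6 of 7 for sulfotransferases and acetyltransferases. Methyltransferases had peaks at 2 of 2 genes and efflux transporters at 5 of 5. The list held 233 separate WT peaks, among them peaks already described for Ugt1a6a, of which 6 carried TNGCGTG (2.58%, beside 2.84% of all WT windows) and 8 were under 25% masked (3.43%, beside 0.454%).

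**Figure D4:**
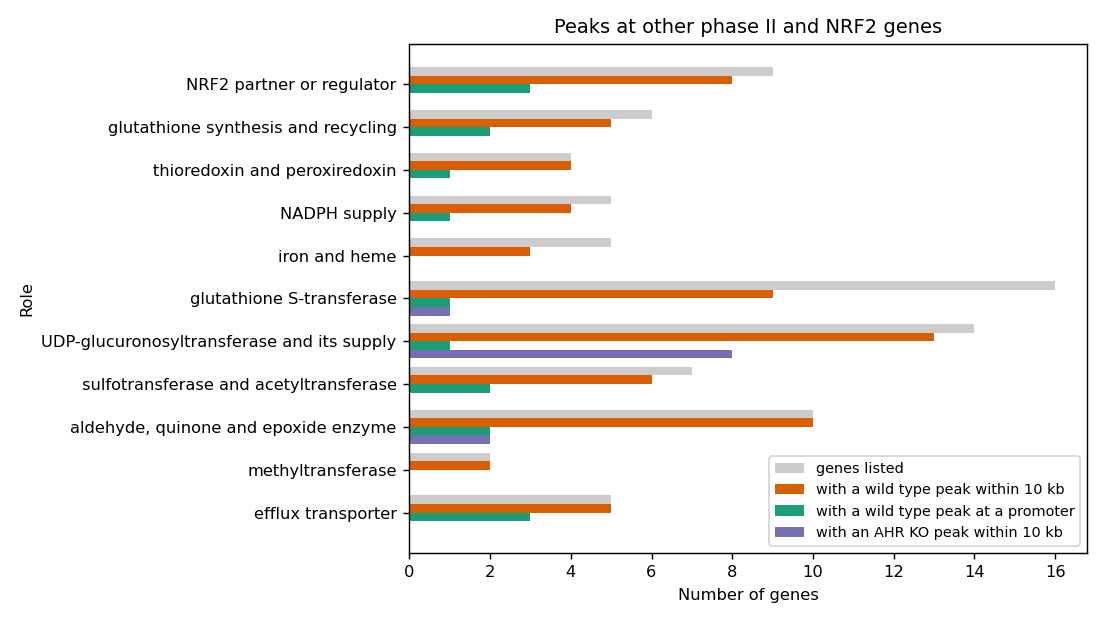
Bars give the number of genes (x axis) in each of 11 roles (rows): listed, with a WT peak within 10 kb, with a WT peak at a promoter and with an AHR KO peak within 10 kb. WT peaks are present in every role, and AHR KO peaks in 3 of them, the largest count being the 8 Ugt1a genes that share 1 peak.

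The peaks with the highest scores at these other genes include some with the AHR:ARNT word. Gstt1, a theta-class glutathione S-transferase, had a peak of 15.18 with 1 TNGCGTG and 8 CA copies, 18228 bp from the start. Ugdh, which makes the UDP-glucuronic acid that UGT enzymes use, had a promoter peak of 14.56 at 672 bp before its start, with 1 TNGCGTG, 9 CA copies and 34.5% masked. Aldh3b1, Abcc1 and Ephx2 followed at 10.84, 10.3 and 9.97. The other 4 peaks with TNGCGTG are named after their values were seen. Maff, a small MAF partner of NRF2, had a promoter peak of 9.64 with 1 TNGCGTG and 14% of the window masked. It lay 1458 bp after the gene start, at the promoter window of another transcript start. Aldh3a2 had a promoter peak of 4.98, 22 bp before its start and 22.5% masked. The peak past the end of Gpx2, a glutathione peroxidase, scored 6.65 and was 47.5% masked, and that in an intron of Aldh1a1 scored 7.31 and was 100% masked. In the AHR KO list, the peaks at Gsta4, Aldh3b1 and Aldh1a1 scored 6.67, 8.57 and 6.25.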

How the data were processed

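AHR ChIP-seq was measured in FICZ-treated WT and AHR KO mouse colon organoids. Per the submitters' processing notes and methods, the authors used BWA 0.7.15, Picard 2.1.1, MACS2 2.1.1 and HOMER 4.8 on mm10. The deposited files are 1 peak list per genotype, WT libraries together, and the score deposited by the authors is, from its values, a fold enrichment, a ratio of pileup plus 1 to background plus 1. Depth per library was not analysed here, so no interval on a score is given, and how reads with several placements were handled is not given in the sources used here.

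Starts were treated as counted from 0, so 1 was added. Of the peaks, 286 WT and 58 AHR KO lay outside chromosomes 1 to 19, X and Y and entered no sequence count. Overlap was counted from 1 bp with Python 3.11.15 and numpy 2.4.6. Words and soft-masked bases were counted in 200 bp around each midpoint. Pileup was read from score steps within 0.0003. The scripts were tested on simulated data.

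All 10 members were named in full. Of the other genes, the 5 with the highest-scoring peaks and those with AHR KO peaks were to be named. Members and lists were chosen with earlier results of these data known. The CT repeat, the uniqueness count and the 50 kb view of words were chosen after values were seen. The sequences of some peak windows are not reported here. No test was run, since the lists hold no value per culture.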

Additional observations from a re-analysis of the deposited data

How the results depend on the processing

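No paired analysis was possible because each genotype came as a single list with nothing to pair, and leaving out each culture could not be run for the same reason. Of 23 alternatives, 13 moved a count by less than 1.5 times and 10 by more. The 22 WT peaks became 9 in the gene bodies alone, 12 within 2 kb, 74 within 50 kb, 5 at or above the AHR KO median score and 3 in the top 10% of scores. The 8 genes with a peak became 4 in the gene bodies alone, 4 at or above the AHR KO median score and 3 in the top 10%. These follow from the smaller or larger region or peak set. The AHR KO median served only as a stricter minimum for WT scores and compares no peak between the lists, whose backgrounds differ. The 1 AHR KO peak became 3 within 50 kb. The 0 windows with TNGCGTG became 6 with the core GCGTG, a shorter word. With the whole peak or 400 bp in place of 200 bp the count of TNGCGTG was 0 again. The background read from the scores was 2.01 fragments in WT and 0.287 in the AHR KO. With 1 AHR KO library no count has a replicate check.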

Other observations

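With the limit widened to 50 kb, the regions held 74 WT peaks, the 22 above included, of which 3 carried TNGCGTG (2.84% of all WT windows did) and 1 was under 25% masked (0.454% of them). These are near the background and are given as values. A view this wide takes in neighbouring genes. Distances from a gene are to the nearest peak edge here. The peak that did both lay 48964 bp past the end of Aldh3a1 (chr11:61267386-61267586, score 4.98, 22.5% masked, 4 CA copies), at the promoter of Aldh3a2, a fatty aldehyde dehydrogenase, with its midpoint 22 bp before that gene's start. The highest score within 50 kb was 12.49, 22895 bp past the end of Gclc (chr9:77817381-77818073), in a window with 1 TNGCGTG and 11 CA copies that was 56.5% masked. The remaining one lay 29933 bp past the end of Keap1 (chr9:21199617-21199796, score 5.65, 47.5% masked, 6 CA copies), with Pde4a as its nearest protein-coding start. AHR KO peaks overlapped WT peaks 37426 bp upstream of Gsta1, close to Gsta4, and 20156 bp past the end of Gsta2, close to Omt2a. These WT peaks scored 7.32 and 8.91 and held 16 and 21 CA copies.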
